A study of Mus musculus with 6 samples.

Results

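The genes described here encode, in the nucleus, the proteins of mitochondrial oxidative phosphorylation. They were chosen by name, as genes annotated on the minus strand whose symbol begins with Nduf, Uqcr or Atp5, is one of the Sdh and Sdhaf symbols, begins with Cox and a digit, or is Cyc1, Cycs or Atpif1. This gave 70 members of the 38483 genes listed. Their RNA was measured by RNA-seq in mouse embryonic fibroblasts (MEFs), primary cells grown from the body of the embryo. There were 3 wild-type (WT) cultures and 3 cultures heterozygous for a knockout of Nipbl (Nipbl+/-), a mouse model of Cornelia de Lange syndrome. Nipbl encodes the loader of cohesin, the ring complex that holds chromosome strands together and shapes their loops. All 6 cultures were of the CD1 strain, came from littermate embryos taken from a pregnant mouse at the start of the third week after conception with limbs, brain and internal organs removed, and were harvested at passage 3. No treatment was given, and the sex of the embryos was not stated. The X-linked RNA Xist had 25, 1 and 7770 counts in the WT cultures. In the Nipbl+/- cultures it had 7544, 7882 and 6 counts, so high Xist was not balanced between the genotypes. Nothing states that each culture came from its own embryo, so the p-values measure the spread between these cultures. No 2 cultures of a genotype were copies of each other, with counts that differed by 10.2 to 34.8 times the chi-square expected from sampling.

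The question put to these genes was whether the loss of 1 Nipbl allele changes the respiratory chain at the level of RNA. The chain sits in the inner mitochondrial membrane. Complex I (NADH dehydrogenase) and complex II (succinate dehydrogenase) pass electrons to ubiquinone, complex III (the bc1 complex) passes them to cytochrome c, and complex IV (cytochrome c oxidase) passes them to oxygen. Complexes I, III and IV pump protons, and complex V (ATP synthase) makes ATP as the protons flow back. Most subunits are encoded in the nucleus and imported, and a small set is encoded in mitochondrial DNA. Because many of these genes are active in every cell, they are often treated as housekeeping genes, and promoters of the set are known to carry sites for the factors NRF1, ETS (GABP) and YY1.

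Another 37 genes had matching names but lay on the plus strand. All 19214 plus-strand genes were listed at 0 in every culture, so nothing can be said of these 37. Among them were 11 accessory and 1 core subunit of complex I, the Sdhb subunit of complex II, 3 subunits of complex III including Cyc1, 7 subunits of complex IV including Cox4i1 and Cox5a, and 3 subunits of complex V including the catalytic pair Atp5a1 and Atp5b. Each complex is thus described by the minus-strand share of its genes. Complex I was represented by 24 subunits, complex II by 3, complex III by 6, complex IV by 11 and complex V by 12. There were also 12 assembly factors, cytochrome c (Cycs) and the inhibitor Atpif1. Ndufa4, first assigned to complex I, was counted with complex IV, and Cox7a2l, which helps join complexes III and IV into supercomplexes, with the assembly factors.

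Total counts lay between 20307454 and 25990783 per culture. Nipbl itself had 2830, 3253 and 2904 counts in the WT and 2233, 2651 and 2101 counts in the Nipbl+/- cultures. After scaling, its level was 128, 145 and 135 CPM (counts scaled to the size of the library) against 100.7, 101 and 100.3 CPM, so that every Nipbl+/- culture lay below every WT culture. Its log2 fold change was -0.43 ± 0.06 (SE), with an adjusted p of 0.021 by the edgeR quasi-likelihood test, and it passed under 13 of 17 alternative settings but not with limma on RPKM or without WT replicate 1, Nipbl+/- replicate 1 or Nipbl+/- replicate 2 (highest adjusted p 0.0864). Of 16 fibroblast markers only 5 lay on the minus strand, and their sum of 15310 to 19021 CPM per culture was mostly Fn1. The 5 had a median log2 fold change of -0.50, with Col6a1 and Col6a2 lower and Fap higher in Nipbl+/- cultures at an unadjusted p under 0.05 and none at an adjusted p. Of 13 macrophage markers listed 5 lay on the plus strand and 8 were tested. Of the 8, 7 were higher in the Nipbl+/- cultures at an unadjusted p under 0.05 and none at an adjusted p. Over all genes tested, 8.98% were higher and 7.95% lower at that unadjusted threshold, and 1.95% passed the adjusted one. The 8 had a summed level of 64.9 to 81.8 CPM in WT and 92.3 to 175 CPM in Nipbl+/- cultures, and none was at 0. Muscle markers, which matter for the muscle forms of complex IV, summed to 240 to 343 CPM in WT and 298 to 343 CPM in Nipbl+/- cultures. Only 6 of 15 lay on the minus strand, and the sum was mostly Acta1. It was at 237 to 338 CPM in WT and 293 to 339 CPM in Nipbl+/- cultures. Tnnt1, the next by mean level, was at 2.36 to 3.16 CPM over the cultures. Whether other cells took part in any value of the members was not tested, and in cultures fewer cells of a type and less RNA per cell cannot be told apart.

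Promoter sequences were taken from RefSeq on the mouse build GRCm38.p6, as windows of 250 bases before and 50 bases after the gene's start, and were found for 59 of the 70 members. The 8 letters CGCANGCG, the core bound by NRF1, were present on either strand in 21 of the 59 windows (35.6%) and in 8.4% of 27025 windows of that length. These 27025, called all windows below, were 1 per RefSeq gene, the first listed, with members included. For members the window nearest the annotated start was taken. The 2 sets were not matched for level or base composition. The ETS letters CCGGAAGT were present in 13.6% against 4.0% of all windows, the YY1 letters AAGATGGC in 13.6% against 2.9%, the SP1 letters GGGCGG in 54.2% against 35.9%, and the cAMP response letters TGACGTCA in 5.1% against 1.9%. At least 1 of the NRF1, ETS and YY1 letters stood in 33 member windows (55.9%) and in 14.0% of all windows. The SP1 letters can overlap the others, and a match of letters shows no binding. The 250 bases before the start are given for 6 members on which the results below turn. Cox6a1 is a member that lay lower in all Nipbl+/- cultures and Sdha the one that lay higher, and both windows hold the NRF1 letters, Atp5l and Cox6b1 are among the most abundant, and Cox8a and Cox8b are a pair of isoforms at opposite ends of the range. All are on the minus strand and are read 5′ to 3′, with the NRF1 core in capitals.
Cox6a1, chr5:115348959-115349208: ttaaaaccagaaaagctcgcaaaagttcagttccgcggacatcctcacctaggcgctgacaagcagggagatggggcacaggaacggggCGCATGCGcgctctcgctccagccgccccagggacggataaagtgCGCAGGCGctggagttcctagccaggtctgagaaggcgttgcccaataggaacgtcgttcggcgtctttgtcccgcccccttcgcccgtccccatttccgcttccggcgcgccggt
Sdha, chr13:74350241-74350490: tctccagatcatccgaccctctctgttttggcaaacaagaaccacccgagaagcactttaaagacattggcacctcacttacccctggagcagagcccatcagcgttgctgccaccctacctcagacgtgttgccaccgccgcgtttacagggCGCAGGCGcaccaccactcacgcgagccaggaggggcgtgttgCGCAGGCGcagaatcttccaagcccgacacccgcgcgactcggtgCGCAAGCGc
Atp5l, chr9:44920743-44920992: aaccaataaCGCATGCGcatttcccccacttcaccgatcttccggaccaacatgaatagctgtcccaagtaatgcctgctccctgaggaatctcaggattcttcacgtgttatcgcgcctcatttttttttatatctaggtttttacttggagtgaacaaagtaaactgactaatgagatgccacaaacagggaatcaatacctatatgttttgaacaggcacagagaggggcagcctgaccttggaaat
Cox6b1, chr7:30626115-30626364: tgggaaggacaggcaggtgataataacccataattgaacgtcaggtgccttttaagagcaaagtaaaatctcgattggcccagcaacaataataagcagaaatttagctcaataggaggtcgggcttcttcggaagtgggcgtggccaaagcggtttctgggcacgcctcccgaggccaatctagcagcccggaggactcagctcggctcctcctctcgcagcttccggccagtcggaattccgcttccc
Cox8a, chr19:7217617-7217866: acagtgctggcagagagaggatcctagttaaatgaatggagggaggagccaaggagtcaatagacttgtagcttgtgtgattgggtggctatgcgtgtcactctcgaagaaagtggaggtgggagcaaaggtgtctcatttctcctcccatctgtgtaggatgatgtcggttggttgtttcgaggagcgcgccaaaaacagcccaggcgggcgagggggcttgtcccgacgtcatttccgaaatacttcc
Cox8b, chr7:140900447-140900696: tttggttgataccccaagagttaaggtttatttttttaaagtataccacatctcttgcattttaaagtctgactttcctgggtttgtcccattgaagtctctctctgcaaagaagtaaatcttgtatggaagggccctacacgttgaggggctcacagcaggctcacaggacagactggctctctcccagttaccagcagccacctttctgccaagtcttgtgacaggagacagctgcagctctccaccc
The NRF1 core stood 3 times before the start of Sdha, 2 times before that of Cox6a1 and 1 time before that of Atp5l. Cox6b1, the member with the highest level, held none of the 5 sets of letters in its window, and neither did Cox8b, which had no counts. In Cox8a the ETS letters stood 2 times in the window, but not wholly within the bases shown. The presence of the letters did not order these 6 genes by level. They were picked in part for their levels, and a relation over the 59 windows was not tested.

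Levels of the members were compared in RPKM, read counts divided by the length of the gene and by the size of the library. They spanned a 100.4-fold range among the 67 members with enough counts for a test, and 22 of the 67 had a mean over the 6 cultures above 100 RPKM. Cox6b1 (ENSMUSG00000036751, mm10 chr7:30616974-30626151), a complex IV subunit that faces the intermembrane space, was the most abundant at 465, 445 and 485 RPKM in WT and 474, 474 and 455 RPKM in Nipbl+/- cultures. Ndufa4 followed at 409, 398 and 385 RPKM in WT and 413, 401 and 397 RPKM in Nipbl+/- cultures. Atp5l, subunit g of the ATP synthase membrane part, was at 422, 399 and 393 RPKM in WT and 388, 389.6 and 369.7 RPKM in Nipbl+/- cultures. Every culture of Cox6b1 lay above every culture of Ndufa4 and Atp5l, whereas the values of Ndufa4 and Atp5l overlapped.

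**Figure D1:**
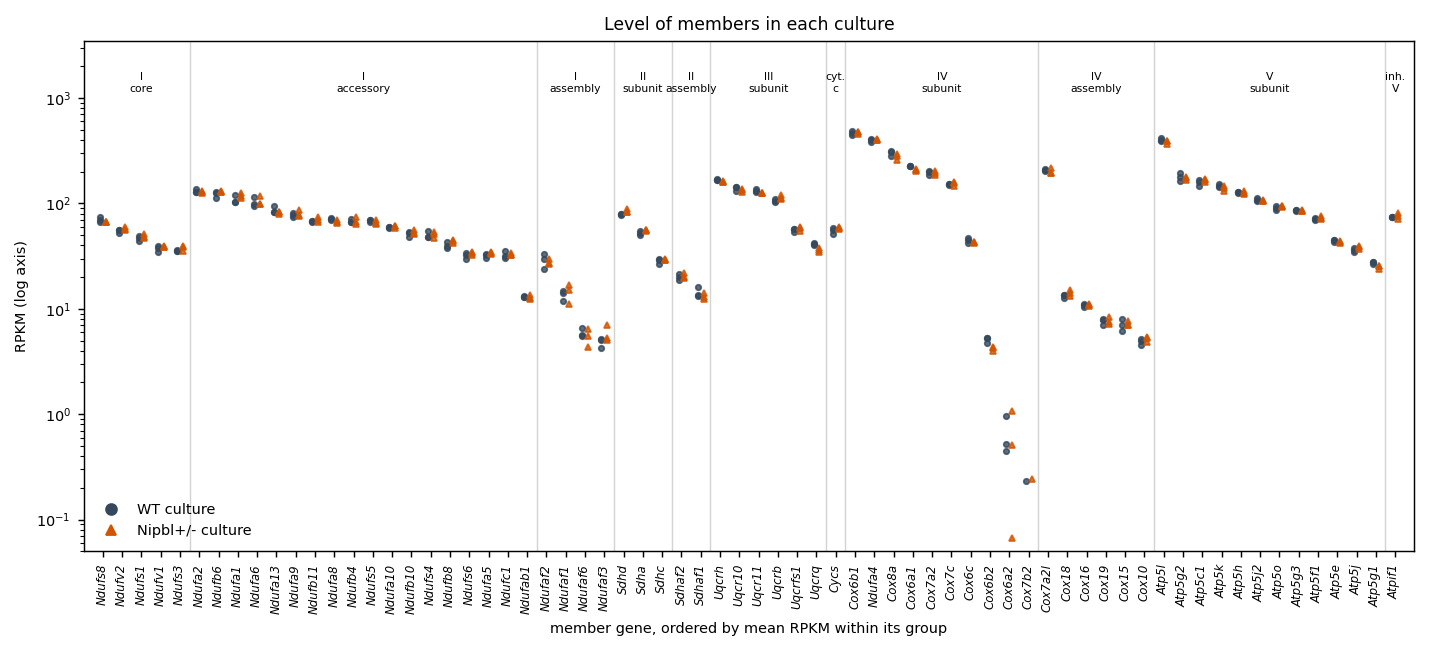
RPKM on a log axis of the members, 1 of them left out, in each of the 6 cultures, WT as circles and Nipbl+/- as triangles, grouped by complex and ordered by mean level. Subunits of complex IV reach 466 RPKM on average and all assembly factors but Cox7a2l have means at or below 28.6 RPKM, while cultures of the 2 genotypes sit on top of each other for most genes; cultures at 0 (4 of the 6 for Cox7b2, all 6 for Cox8b) cannot be drawn.

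The median over tested subunits was 63.5 RPKM for complex I, 54.1 RPKM for complex II, 119.7 RPKM for complex III, 206 RPKM for complex IV and 99.9 RPKM for complex V. Assembly factors, which build the complexes but are not part of them, had a median of 12.3 RPKM against 72.7 RPKM for all 53 tested subunits. The heme A synthesis enzymes Cox10 and Cox15 were at 5.05 and 7.16 RPKM, and the complex I factors Ndufaf3 and Ndufaf6 at 5.29 and 5.69 RPKM. Cox7a2l was the exception among the assembly factors, at 206 RPKM. These levels depend on the length assigned to each gene. Per kilobase of principal transcript, in CPM, the medians were 73.1 for complex I, 74.9 for complex II, 189 for complex III, 287 for complex IV and 220.3 for complex V, so that the order of complexes I and II and of III and V turned, and 13.2 for assembly factors against 110.1 for all subunits. For 12 members the length behind the RPKM was more than 2 times that of the principal transcript, as for Ndufb8 with 3146 bases against 680 and Atp5e with 1756 bases against 421. Per kilobase of principal transcript Ndufb8 moved from rank 45 to rank 17, Cox6c from 43 to 15 and Uqcrh from 9 to 2, while Cox6b1 stayed at rank 1, and the Spearman correlation of the 2 orders was 0.88 over the 67 genes, which share the same counts.

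Several complex IV subunits exist as a form used in most tissues and a form used in muscle or testis, and for subunits VIa, VIb and VIII both forms could be compared here. Cox6a1 was at 228, 226 and 225 RPKM in WT and 213, 207 and 201 RPKM in Nipbl+/- cultures. Its muscle and heart form Cox6a2 had 8, 7 and 14 counts in WT and 1, 19 and 7 counts in Nipbl+/- cultures, between 0.0313% and 0.521% of the RPKM of Cox6a1. Cox8a was at 312, 285 and 308 RPKM in WT and 296, 281 and 259.9 RPKM in Nipbl+/- cultures. Its muscle form Cox8b had 0 counts in all 6 cultures, which allows a level of up to 0.115 to 0.148 CPM per culture at 3 counts, a limit for counting error only. Cox7b2, the testis form of subunit VIIb, whose common form Cox7b lies on the plus strand, had 3 counts in 1 culture of each genotype and 0 in the other cultures. The testis form Cox6b2 was the only alternative form with enough counts for a test, and its RPKM was 1.10% ± 0.0872 (SD, n = 3) of that of Cox6b1 in WT and 0.896% ± 0.0541 (SD, n = 3) in Nipbl+/- cultures, or 2.31% over all cultures per kilobase of principal transcript. The c subunit of the ATP synthase rotor is made from 3 genes with the same mature product. Atp5g3 was at 84.1, 87.4 and 86.8 RPKM in WT and 85.6, 84.1 and 86.0 RPKM in Nipbl+/- cultures, and Atp5g1 was at 27.7% to 33.3% of it. Atp5g2 was at 185% to 226% of Atp5g3, but this order depended on the length used, since per kilobase of principal transcript Atp5g2 was at 41.2% and Atp5g1 at 10.6% of Atp5g3. In addition 87.4% of the Atp5g2 transcript is shared with other genes, mainly the pseudogene Gm10175, and its counts are uncertain.

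No member passed the adjusted threshold in Nipbl+/- against WT MEFs. The edgeR quasi-likelihood test called 0 of 67 members at an adjusted p under 0.05, against 177 of 9061 genes tested (1.95%), and the edgeR exact test and DESeq2 called 0 members as well. At an unadjusted p under 0.05, 5 members were lower (7.46%) against 7.95% of all genes, and 0 were higher against 8.98% of all genes. The share of lower members was close to that of all genes. Leaving out 1 culture moved the 5 to 3 (without Nipbl+/- replicate 3) or 10 (without WT replicate 3) and the 177 to as few as 3 (without Nipbl+/- replicate 1), with 0 members past the adjusted threshold in each case. The 70 members together took 0.743% ± 0.00416 (SD, n = 3) of all counts in WT and 0.744% ± 0.00803 (SD, n = 3) in Nipbl+/- cultures.

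**Figure D2:**
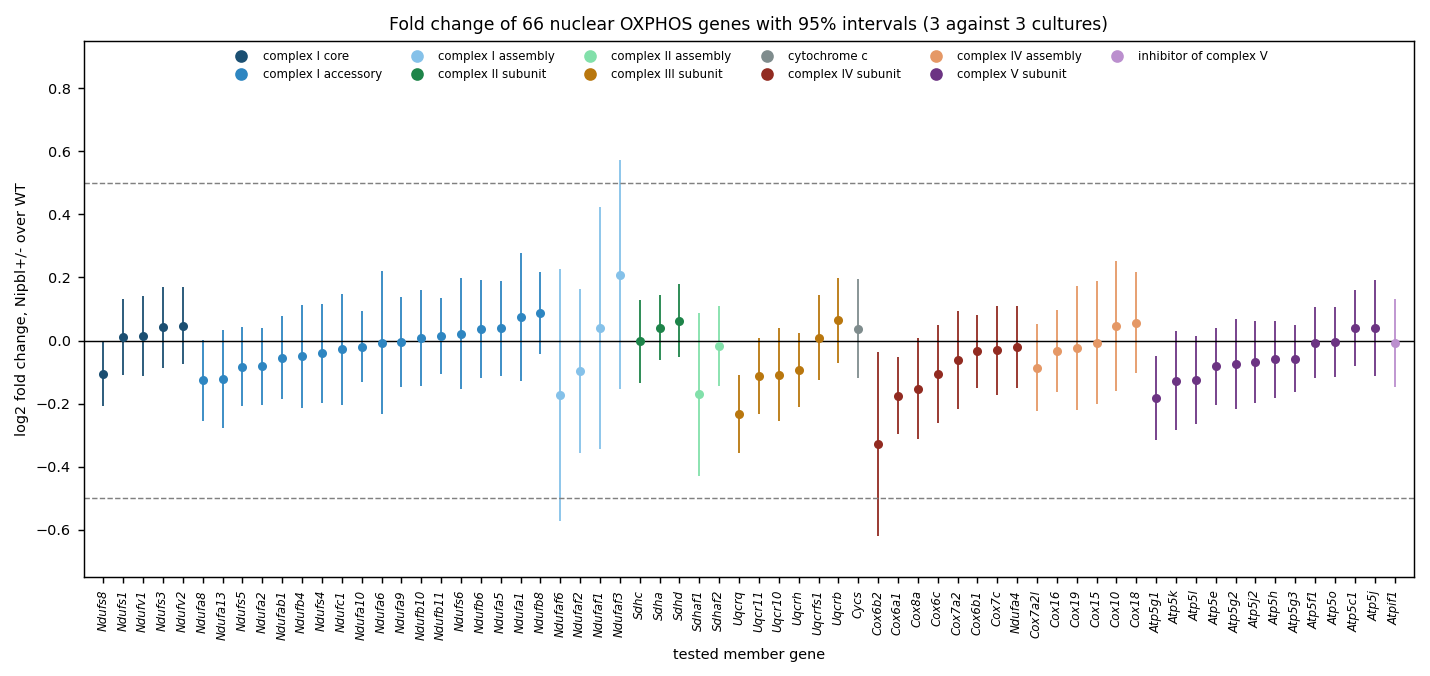
Log2 fold change of Nipbl+/- over WT for 66 of the 67 tested members, grouped and coloured by complex, with 95% intervals from the edgeR fit over 3 and 3 cultures; dashed lines mark 0.5 on the log2 scale in each direction. The points lie between -0.33 for Cox6b2 and 0.21 for Ndufaf3, and 63 of the 66 intervals stay between the dashed lines.

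The precision was high enough to set limits on the differences. The 95% interval lay within 0.5 of 0 on the log2 scale, or between 29.3% lower and 41.4% higher, for 64 of 67 members (95.5%) and for 62.6% of all genes tested. The 3 exceptions were Cox6b2, Ndufaf3 and Ndufaf6, which ranked 67, 65 and 64 of 67 in RPKM. The coefficient of variation between cultures of a genotype had a median of 4.70% over members and of 7.91% over all genes tested, a difference that was not tested. The median standard error was 0.06 for members and 0.10 for all genes. In these comparisons the members were not matched for level with all genes tested.

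The median log2 fold change of the 67 members was -0.02, with 22 above and 45 below 0, beside a median of -0.01 over all genes tested. That direction depended on the scaling, since with library size alone the members' median was 0.01 and with log2 RPKM 0.02, with 38 of 67 members above 0 in both, while the median of all genes rose to 0.03 in both. The members' median remained below that of all genes under each scaling, with differences of -0.0192 with TMM scaling, -0.0209 with library size alone and -0.0143 with log2 RPKM.

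Complex I is the entry point for electrons from NADH. Its 24 tested subunits had a median log2 fold change of -0.01, 11 above and 13 below 0, and with library size alone the median was 0.03 with 16 above 0. The core subunits, which carry the flavin and the iron-sulfur clusters, had a median log2 fold change of 0.01. Ndufs1, the largest, was at 44.4, 47.3 and 49.3 RPKM in WT and 46.5, 48.5 and 51.3 RPKM in Nipbl+/- cultures, with overlapping genotypes and a log2 fold change of 0.01 (95% interval -0.11 to 0.13). Ndufv1, which binds NADH, was at 38.2, 34.9 and 39.1 RPKM in WT and 38.4, 39.9 and 38.3 RPKM in Nipbl+/- cultures, a log2 fold change of 0.01 (-0.11 to 0.14). Ndufs3 and Ndufv2 had log2 fold changes of 0.04 and 0.05. Ndufs8, which carries a pair of iron-sulfur clusters, was the core subunit with the largest difference. It was at 66.9, 69.9 and 73.7 RPKM in WT and 67.3, 66.9 and 67.1 RPKM in Nipbl+/- cultures, with a log2 fold change of -0.11 (-0.21 to -0.00) and an adjusted p of 0.28 by the edgeR quasi-likelihood test. All of its Nipbl+/- cultures lay below all WT cultures in TMM-scaled CPM, but on the RPKM scale the genotypes overlapped. The 18 accessory subunits lay between -0.13 (Ndufa8) and 0.09 (Ndufb8), both named here after their values were seen. The 4 complex I assembly factors were spread more widely, from -0.17 (Ndufaf6) to 0.21 (Ndufaf3), with a median standard error of 0.16. Ndufaf3 was at 4.27, 5.14 and 5.07 RPKM in WT and 5.05, 5.28 and 6.96 RPKM in Nipbl+/- cultures, so a single culture lay apart and the interval reached from -0.15 to 0.57.

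Complex II, which is also the succinate dehydrogenase of the citric acid cycle, had a median of 0.04 on the log2 scale over Sdha, Sdhc and Sdhd, and 0.08 with library size alone. The flavoprotein Sdha (ENSMUSG00000021577, mm10 chr13:74322254-74350280) was at 50.5, 52.6 and 54.5 RPKM in WT and 54.9, 55.5 and 56.4 RPKM in Nipbl+/- cultures. It was the only member whose Nipbl+/- cultures all lay above all WT cultures in TMM-scaled CPM, 1 of 67 beside 12.0% of all genes, and the difference was small, at 0.04 (-0.06 to 0.14; edgeR quasi-likelihood adjusted p = 0.70). The membrane anchor Sdhd was at 79.7, 78.7 and 77.7 RPKM in WT and 83.9, 82.5 and 87.7 RPKM in Nipbl+/- cultures, a log2 fold change of 0.06 (-0.05 to 0.18), and the genotypes did not overlap on the RPKM scale. The other anchor Sdhc had a log2 fold change of -0.00, with an interval of -0.13 to 0.13. The assembly factors Sdhaf1 and Sdhaf2 had log2 fold changes of -0.17 (-0.43 to 0.09) and -0.02 (-0.14 to 0.11), and 69.6% of the exon bases of Sdhaf1 overlap a plus-strand gene.

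The median log2 fold change over the 6 tested subunits of complex III was -0.10, 2 above and 4 below 0, and -0.06 with library size alone. It was the lowest of the 5 complexes with all cultures. Without Nipbl+/- replicate 1 complex IV was lower, at -0.111 against -0.104. Uqcrq (ENSMUSG00000044894, mm10 chr11:53427922-53430831), a small subunit without a redox centre, had the lowest adjusted p of all members. It was at 40.7, 42.2 and 40.9 RPKM in WT and 37.4, 36.3 and 34.8 RPKM in Nipbl+/- cultures, and every Nipbl+/- culture lay below every WT culture. The log2 fold change was -0.23 ± 0.05 (SE; 95% interval -0.36 to -0.11), or 14.9% lower, with an unadjusted p of 0.0023 and an adjusted p of 0.069 by the edgeR quasi-likelihood test. It did not pass the threshold. Over the 17 alternative settings the adjusted p was between 0.0551 (DESeq2) and 0.219 (without WT replicate 1). Uqcr11, Uqcr10 and Uqcrh, other small subunits named after their values were seen, had log2 fold changes of -0.11, -0.11 and -0.09, and the remaining one, Uqcrb, had 0.06. Uqcrfs1, the Rieske iron-sulfur protein that takes electrons from ubiquinol, was at 57.3, 53.8 and 56.8 RPKM in WT and 60.2, 58.8 and 54.9 RPKM in Nipbl+/- cultures, with a log2 fold change of 0.01 (-0.13 to 0.14). Cycs, the mobile carrier between complexes III and IV, was at 55.7, 58.9 and 51.5 RPKM in WT and 57.8, 59.7 and 58.3 RPKM in Nipbl+/- cultures, a log2 fold change of 0.04 (-0.12 to 0.19).

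All 8 tested subunits of complex IV had a log2 fold change below 0 with TMM scaling, with a median of -0.08, but with library size alone 3 of the 8 lay above 0 and the median was -0.04. The abundant Cox6b1 and Ndufa4 had log2 fold changes of -0.03 (-0.15 to 0.08) and -0.02 (-0.15 to 0.11). Cox6a1 (ENSMUSG00000041697, mm10 chr5:115345642-115348981), whose values per culture are given above, was lower in every Nipbl+/- culture than in every WT culture. Its log2 fold change was -0.17 ± 0.05 (SE; 95% interval -0.30 to -0.05), and the adjusted p was 0.145 by the edgeR quasi-likelihood test. Cox8a had a log2 fold change of -0.15 (-0.31 to 0.01), and 1 of its 9 pairs of cultures went the other way. Cox7a2, the common form of subunit VIIa, was at 199.9, 203 and 188 RPKM in WT and 203, 195 and 185 RPKM in Nipbl+/- cultures, with overlapping genotypes and a log2 fold change of -0.06 (-0.22 to 0.09). The testis form Cox6b2 (ENSMUSG00000051811, mm10 chr7:4751792-4753094) had the largest fold change of the members on few counts. It was at 4.72, 5.29 and 5.29 RPKM in WT and 4.30, 3.97 and 4.29 RPKM in Nipbl+/- cultures, which did not overlap. Its log2 fold change was -0.33 ± 0.13 (SE; 95% interval -0.62 to -0.04), with an adjusted p of 0.248 by the edgeR quasi-likelihood test. Of the assembly factors, Cox7a2l had a log2 fold change of -0.09 (-0.22 to 0.05), and the 6 had a median of -0.02.

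The median log2 fold change over the 12 subunits of complex V was -0.06, 2 above and 10 below 0, and of -0.02 with library size alone, with 4 above 0. The central shaft subunit Atp5c1 was at 159, 148 and 165 RPKM in WT and 159, 172 and 168 RPKM in Nipbl+/- cultures, a log2 fold change of 0.04 (-0.08 to 0.16). Atp5o, which ties the catalytic head to the stalk, was at 91.5, 87.1 and 95.1 RPKM in WT and 92.0, 95.4 and 93.6 RPKM in Nipbl+/- cultures, a log2 fold change of -0.00 (-0.11 to 0.11). However, 35.5% of the Atp5o transcript is shared with other genes, mainly another entry of that name. Of its exon bases 47.9% overlap other genes, so its counts are uncertain. Atp5g1 (ENSMUSG00000006057, mm10 chr11:96068852-96075670), a gene for the c subunit of the rotor, was at 28.0, 26.9 and 27.7 RPKM in WT and 25.5, 25.7 and 23.8 RPKM in Nipbl+/- cultures, which did not overlap. Its log2 fold change was -0.18 ± 0.06 (SE; 95% interval -0.31 to -0.05), with an adjusted p of 0.162 by the edgeR quasi-likelihood test. The other c-subunit genes Atp5g2 and Atp5g3 had log2 fold changes of -0.07 (-0.22 to 0.07) and -0.06 (-0.16 to 0.05), and whether Atp5g1 differs from them was not tested. Atp5l, with the values given above, had a log2 fold change of -0.12 (-0.26 to 0.01). Atpif1, the protein that stops the synthase from running in reverse, was at 74.9, 74.5 and 74.5 RPKM in WT and 71.7, 81.8 and 75.8 RPKM in Nipbl+/- cultures, a log2 fold change of -0.01 (-0.15 to 0.13).

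Members whose genotypes did not overlap are best seen side by side. With TMM scaling, all Nipbl+/- cultures lay below all WT cultures for 8 of 67 members (11.9%) beside 10.8% of all genes. These were Cox6b2, Uqcrq, Atp5g1, Cox6a1, Atp5l, Uqcr11, Ndufs8 and Atp5g3, of complexes I, III, IV and V. On the RPKM scale, which lacks that scaling, 7 members lay below, beside 6.97% of all genes, and 5 lay above, beside 16.4% of all genes. The 5 were Ndufb6, Ndufv2, Sdha, Sdhd and Uqcrb. Cox6b2, Uqcrq, Atp5g1, Cox6a1, Atp5l and Uqcr11 were below on both scales and Sdha above on both. An exact permutation test of 3 against 3 cultures cannot give a two-sided p below 0.1.

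**Figure D3:**
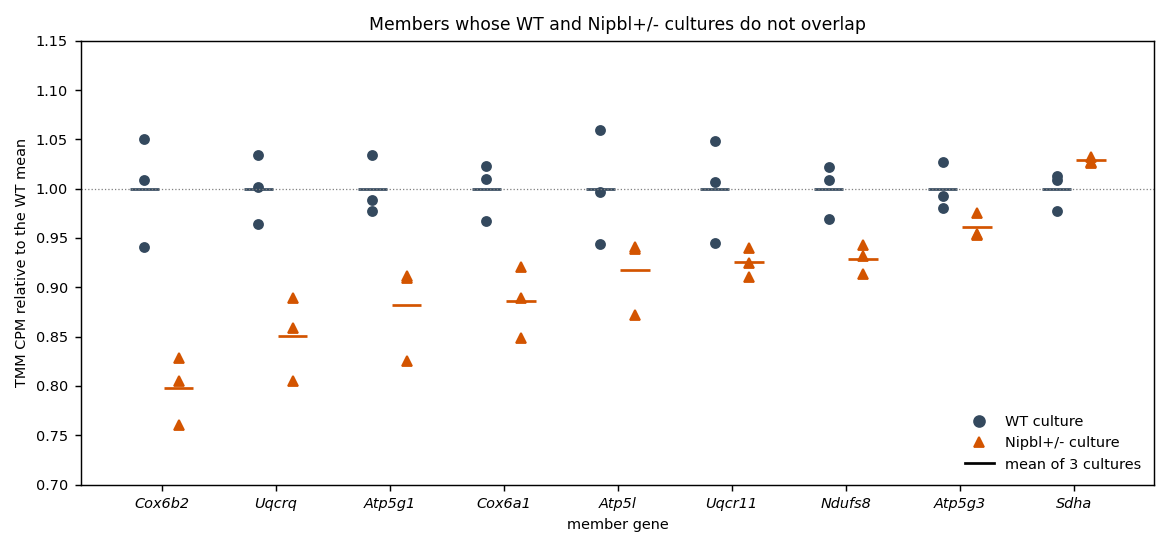
TMM-scaled CPM of each culture divided by the WT mean for the 9 members whose genotypes do not overlap, WT as circles, Nipbl+/- as triangles and short lines for the mean of 3 cultures; the axis starts at 0.7. Gaps between the genotypes are wide for Cox6b2, Uqcrq, Atp5g1 and Cox6a1 and narrow for Atp5g3, Atp5l and Sdha.

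A feature that the choice of members did not use was the length of the protein. Many subunits are short, and the median coding length of the tested members was 408 bases against 1371 bases for the 6930 protein-coding genes tested. Of the 34 members at or below 408 bases, 27 had a log2 fold change below 0 and the median was -0.06. Of the 33 longer members, 18 lay below 0 and the median was -0.00. The Spearman correlation of coding length with log2 fold change was 0.45 over the 67 members and 0.08 over the 6930 genes, as a description of genes that share the same 6 libraries. Among all tested genes of at most 408 bases, 233 of 395 lay below 0 with a median of -0.03. Among longer genes the median was 0.01. The 395 genes include the 34 short members, and the 6930 genes include the 67 members. Neither set is thus a background separate from the members. With library size alone the median of the short members was also below 0, at -0.03, but only 19 of 34 lay below 0 and 15 above. With log2 RPKM the median was -0.02, with the same 19 and 15. This division was made after the values were seen. It also partly followed the complexes. Every tested subunit of complex IV was short, the longest being Cox6a1 at 336 bases. So was every tested subunit of complex III but Uqcrfs1, at 822 bases. No tested subunit of complex II was short, the shortest being Sdhd at 477 bases. The shift by length and the lower medians of complexes III and IV thus cannot be told apart. The shift in the short members was not even over the cultures: the median deviation from a gene's mean was 0.09, 0.06 and -0.04 in the WT cultures and -0.00, -0.01 and -0.08 in the Nipbl+/- cultures on the log2 scale, so that WT replicate 3 lay among the Nipbl+/- cultures. WT replicate 3 was also the WT culture with high Xist. Nipbl+/- replicate 3, the Nipbl+/- culture with low Xist, had the lowest value, -0.08. Nipbl+/- replicates 1 and 2, with high Xist, were at -0.00 and -0.01. Whether Xist bears on the shift in the short members was not tested.

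**Figure D4:**
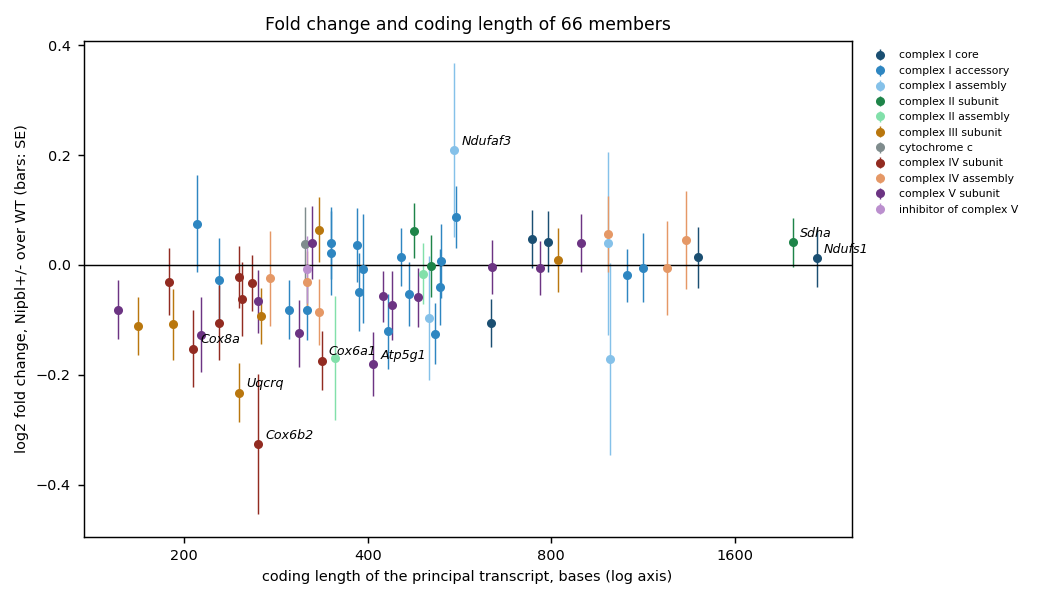
Log2 fold change of Nipbl+/- over WT against the coding length of the principal transcript on a log axis for 66 of the 67 tested members, coloured by complex, with standard errors as bars. Of the 34 genes at or below 408 bases 27 lie below 0, among them Uqcrq, Cox6b2, Cox6a1 and Atp5g1, and the longest genes, such as Sdha and Ndufs1, lie close to 0.

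Reads of some members cannot be told from those of other genes. The principal transcripts of 32 tested members shared at least 1 word of 50 bases with another annotated gene, and 10 shared more than 30% of them, led by Cox16 with 88.7% (the overlapping gene Gm20498), Atp5g2 with 87.4% and Atp5l with 68.5% (Gm10221). The 35 members that shared no word had a median log2 fold change of -0.02, beside -0.02 for all 67. For 7 members more than 25% of the exon bases overlap another gene, among them Sdhaf1 and Ndufaf2, and the library preparation did not mark the strand.

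Genes around the respiratory chain were counted in lists. Of the 14 tested genes of the citric acid cycle and pyruvate entry, 1 passed the adjusted threshold, beside 1.95% of all genes tested. The list had a median log2 fold change of -0.01. The gene past the threshold was Idh2, the NADP-dependent isocitrate dehydrogenase of mitochondria, at 78.8, 89.1 and 78.4 CPM in WT and 105, 100.3 and 103 CPM in Nipbl+/- cultures, with no overlap. It rose by a log2 fold change of 0.33 ± 0.06 (SE), with an adjusted p of 0.042 by the edgeR quasi-likelihood test, but it passed under only 9 of 17 alternative settings, and not with upper-quartile scaling, limma on log2 RPKM or a replicate block, without WT replicate 1 or 3 or without any 1 of the Nipbl+/- cultures (highest adjusted p 0.162). None of the 4 tested genes of coenzyme Q synthesis passed (median 0.04), nor did any of 14 assembly factors with other names (-0.04), 9 regulators of mitochondrial biogenesis (0.08) or 10 glycolysis genes (0.01). At an unadjusted p under 0.05 the list of assembly factors had 1 lower gene, glycolysis 1 lower gene, the citric acid cycle 2 higher and 3 lower, and the other lists 0. Over all genes tested, 8.98% were higher and 7.95% lower at that threshold, and these lists are small. Of the 13 subunits encoded in mitochondrial DNA only mt-Nd6 lies on the minus strand. It had a log2 fold change of 0.11 (95% interval -0.13 to 0.34), and the other 12 were listed at 0 with the rest of the plus strand.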

How the data were processed

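RNA-seq libraries came from 3 WT and 3 Nipbl+/- cultures of MEFs. Total RNA was depleted of ribosomal RNA and made into TruSeq libraries, a kit that does not mark strand (the extract label names ES cells, the other labels MEFs). According to the submitters' processing notes and the methods, the authors aligned reads with TopHat2 2.0.10 to mm10 with the Ensembl 72 annotation and used edgeR. The authors deposited raw read counts per gene, and the counting tool is not given in the sources used here. The authors also deposited RPKM values, counts divided by the length of the gene and the size of the library, which served for levels. All plus-strand genes were at 0 in the deposited counts.

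Counts were filtered with filterByExpr (minimum count 10), scaled by TMM and fitted in edgeR 4.0.16 (R 4.3.3) with its quasi-likelihood test and no covariate, with Benjamini-Hochberg adjustment over all 9061 genes tested and a threshold of 0.05. The fit was tested on simulated data. Standard errors are the log2 fold change over the square root of the F statistic, and 95% intervals use the t quantile. CPM values are scaled with TMM. Total counts of 20307454 to 25990783 per culture made counting error small for most members, so the spread between cultures limits the precision. Alternatives were DESeq2 1.42.0, the edgeR exact test, limma 3.58.1 on log2(RPKM + 0.5), other scalings and filters, an Xist covariate (3 cultures had high Xist), a replicate block and leaving out each culture. Transcript lengths, coding lengths and shared 50-base words came from GENCODE M21, and promoters from RefSeq. Members, lists and motifs were chosen with earlier results of these data known. Genes were named where past the adjusted threshold, for the largest changes with all 9 pairs of cultures in 1 direction, for the 3 highest levels, for a list of core subunits and isoform pairs, and for having too few counts. Other members named were chosen after their values were seen. Genes are given with the identifiers and coordinates of the files. The values of 1 member are not reported here, and it enters only counts and medians.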

Additional observations from a re-analysis of the deposited data

How the results depend on the processing

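No member passed the adjusted threshold under any of the 17 alternative settings, by DESeq2, the edgeR exact test or limma included. With 3 cultures a genotype, a member that missed the threshold is not shown to be equal between genotypes. The 24 named members with a fold change moved by less than 1 standard error under each alternative, and 36 of 408 values, of 10 members, had the other sign. The count of members lower at an unadjusted p under 0.05 was 3 with DESeq2, 8 with upper-quartile scaling and 3 with library size alone, against 5, and between 3 (without Nipbl+/- replicate 3) and 10 (without WT replicate 3) when 1 culture was left out. Scaling turned the sign of the medians of all members and of complex I, which also lay above 0 without WT replicate 1, Nipbl+/- replicate 1 or Nipbl+/- replicate 3. With library size alone 38 members lay above 0 against 22, and the medians were 0.0335 for complex I, 0.0785 for complex II and -0.0245 for complex V. With limma on log2 RPKM, which has no TMM scaling either, 38 members lay above 0, and the medians were 0.0188 for all members, 0.037 for complex I, 0.0829 for complex II and -0.0197 for complex V. With the Xist level as a covariate the medians were -0.0286 for all members, -0.0011 for complex I and 0.039 for complex II. They were -0.0858 for complex III, -0.0675 for complex IV and -0.0575 for complex V. The medians of complexes III, IV and V stayed below 0 and that of complex II above 0 under every setting. The genotypes overlapped in the median deviation from a gene's mean for complexes I, II, III and IV. For complex I it was 0.021 and -0.033 in WT replicates 2 and 3 and 0.022 in Nipbl+/- replicate 2. For complex III it was -0.0234 in WT replicate 3, below the -0.0217 and -0.0221 of Nipbl+/- replicates 1 and 2. For complex IV it was -0.0001 in WT replicate 3 and 0.022 in Nipbl+/- replicate 1. For complex II it was 0.009 in WT replicate 1 and 0.001 in Nipbl+/- replicate 2. For complex V there was no overlap, with -0.016 in WT replicate 3 and -0.019 in Nipbl+/- replicate 2. The number of genes called among all genes, 177, was 432 with the exact test, 449 with DESeq2, 325 without a filter on low counts, 31 with limma and 3 to 268 when 1 culture was left out (6 without WT replicate 1, 65 without WT replicate 3, 3 without Nipbl+/- replicate 1, 11 without Nipbl+/- replicate 2 and 67 without Nipbl+/- replicate 3). The cause was not tested.

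Cultures of the same number did not deviate together, with correlations of -0.06, -0.04 and -0.14, beside -0.07 to 0.12 for cultures of different number. These values gave no sign of pairing by number, but they cannot show how the cultures were prepared. With a replicate block 0 members passed the adjusted threshold, 7 were lower at an unadjusted p under 0.05, the members' median was -0.0244 and 86 genes were called in all.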
